A study of Mus musculus with 2 samples.

Results

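The striated muscle contractile genes are 34 genes, taken by name from the 32285 genes of a droplet single-cell RNA count table of mouse skin. They were followed over the 8127 barcodes that held 200 or more genes and at most 20% mitochondrial counts. Each barcode stands for about 1 cell, and a count is 1 unique molecular identifier (UMI), a tagged RNA molecule. Barcodes in which Acta1 and Ckm together reached 100 UMIs per 10000 were called muscle barcodes, and there were 112 of them, or 1.38% (1.14 to 1.66). The other 8015 barcodes served as the comparison.

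The study asked how removing neutrophils alters skin. All animals were C57BL/6 of 8 weeks, and the skin was digested to single cells with Liberase and a DNase. Depleted animals had received an antibody against Ly6G, clone 1A8, for 2 days, and control and depleted cells were tagged with hashtag antibodies and pooled into 1 RNA library. The table held no condition for any barcode and the hashtag library was not used here, so each value below describes the pool of control and depleted skin, with no replicate. Intervals in parentheses are 95% intervals that cover counting error only, and no test between conditions could be made.

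Striated muscle contracts when myosin heavy chains of the thick filament pull on actin of the thin filament, and calcium released from the sarcoplasmic reticulum switches this on through troponin and tropomyosin. Fast and slow fibres build the same machine from different paralogs: fast fibres use Tnnc2, Tnni2, Tnnt3, Mylpf and the myosins Myh4, Myh1 or Myh2, and slow fibres use Tnnc1, Tnni1, Tnnt1, Myl2 and Myh7. Mouse skin lies on the panniculus carnosus, a thin sheet of skeletal muscle, and also holds smooth muscle in vessels and hair erector muscles, which uses its own actins and myosins. The members were read as 14 fast genes, 8 slow genes and 12 genes shared by both fibre types.

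Promoters of 3 members are shown because they stand for the 3 outcomes described below: Acta1, the skeletal actin found in each muscle barcode, Myh4, a fast myosin found in some of them, and Tnnc1, a slow troponin found in none. Each line gives the 250 bases before the RefSeq start on GRCm38.p6, 5′ to 3′ on the strand of the gene. Capitals mark TATAAA, the MCAT element CATTCC, the MEF2 element and the CArG box, read on both strands.

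Acta1, chr8:123894776-123895025, minus strand: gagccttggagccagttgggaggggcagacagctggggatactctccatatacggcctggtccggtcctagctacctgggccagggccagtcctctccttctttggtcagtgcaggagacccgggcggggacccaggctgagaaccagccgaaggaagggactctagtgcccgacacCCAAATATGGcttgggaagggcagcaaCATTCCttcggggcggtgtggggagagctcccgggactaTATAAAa
Myh4, chr11:67237562-67237811, plus strand: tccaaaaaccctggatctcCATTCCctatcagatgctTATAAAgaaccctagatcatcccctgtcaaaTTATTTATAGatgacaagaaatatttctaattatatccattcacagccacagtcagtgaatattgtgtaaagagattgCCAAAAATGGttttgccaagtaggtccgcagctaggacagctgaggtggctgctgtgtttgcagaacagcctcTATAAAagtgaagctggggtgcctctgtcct
Tnnc1, chr14:31208062-31208311, plus strand: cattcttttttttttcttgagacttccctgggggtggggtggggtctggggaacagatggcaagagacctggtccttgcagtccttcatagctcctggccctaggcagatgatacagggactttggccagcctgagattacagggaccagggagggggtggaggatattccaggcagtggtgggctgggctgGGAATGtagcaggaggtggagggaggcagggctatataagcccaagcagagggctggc

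The RefSeq table held windows from 250 bases before to 50 after a start for 27 of the 34 members, 33 windows in all because some genes have several starts. MEF2, bound by a factor of muscle genes, matched 5 of the 33 windows, against 3.19% of all 32851 windows in the table. CArG, bound by serum response factor, matched 3 of the 33, against 1.63% of all windows. CATTCC, the MCAT element, matched 10 of the 33, against 14.7% of all, and TATAAA matched 7, against 13.6%. The E-box CANNTG, the core of sites for MyoD-type factors, matched 29, against 72.3% of all. A MEF2 match can share letters with TATAAA, windows of 1 gene can overlap, and a match is a run of letters, not a measured binding site.

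Acta1 plus Ckm, the 2 genes that chose the 112 muscle barcodes, ran from 112.9 over a median of 754.7 to 1266 UMIs per 10000 among them, and the values ran on across the threshold. The 3 barcodes just inside the threshold held 112.9, 115.2 and 138.7 per 10000, and the 3 just outside held 95.2, 92.5 and 84.2. Between 10 and 50 per 10000 there were 33 barcodes, between 50 and 100 there were 4, between 100 and 200 there were 9 and between 200 and 500 there were 14, while 6716 barcodes had no UMI of either gene. When the barcodes were clustered without the 34 members, 97 of them formed a single cluster, in which the 12 other skeletal muscle markers on the list were all 2-fold or more above the median cluster. Those 97 were the muscle barcodes not called doublets, and the other 15 muscle barcodes, all between 100 and 500 per 10000, were called doublets, droplets scored as holding 2 cells.

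**Figure D1:**
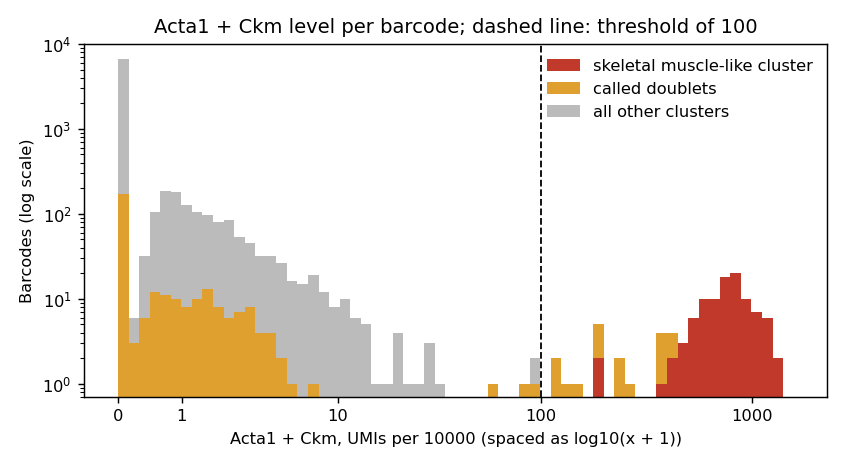
Number of barcodes (log axis) by their Acta1 plus Ckm level in UMIs per 10000, with the skeletal muscle-like cluster in red, called doublets in yellow and all other clusters in grey. The red cluster lies to the right of the dashed threshold of 100, and 4 barcodes lie between 50 and 100.

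Muscle barcodes were shallower than the others, with a median of 4975 UMIs (lowest 537, highest 39108) against 9757, and a median of 1293 genes against 2936. Mitochondrial transcripts made up a median of 0.0493% of their UMIs, against 1.57% in other barcodes. The 15 called doublets among them were deeper, with a median of 15125 UMIs and a mitochondrial median of 0.879%. Markers of other cell types were low but present: the 6 fibroblast markers summed to 2218 CPM (UMIs of a gene in 1000000 UMIs) in muscle barcodes, against 20749 in fibroblast-like cells. Without the called doublets the same sum was 818.5 CPM and the median muscle barcode had 0. Of the 11 muscle barcodes with 3 or more fibroblast markers, 8 were called doublets. The basal keratinocyte list stood at 668.7 CPM with doublets and 65.1 CPM without them, and the monocyte list at 448.3 CPM and 146.1 CPM. Pericyte or smooth muscle markers gave 3 UMIs in all, neutrophil markers 1 and T cell markers 2. The share of member UMIs is given below also without the called doublets and without the 11 barcodes that carried 3 or more fibroblast markers.

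The 34 genes together made up 23.6% (23.5 to 23.7) of all UMIs in muscle barcodes, or 187436 of 794105. In a single muscle barcode the share ran from 3.67% over a median of 29.4% to 38.7%. It was 29.4% of summed UMIs without the called doublets, 8.92% within them and 26.83% without the 11 barcodes with 3 or more fibroblast markers. In all other barcodes the 34 genes made up 0.027% of the UMIs, so that 1.38% of the barcodes held 89.3% of the member UMIs. In the muscle barcodes 31 members had at least 1 UMI, 10 members had a UMI in each of the 112, and 3 slow members had none.

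Of the 30 members with 50 or more UMIs over the kept barcodes, 27 were at least 10-fold higher in muscle barcodes than in the rest, against 1.97% of the 15408 genes of that depth. At least 100-fold was reached by 26 members, against 0.792% of genes. The median fold was 955.7 over these 30 members and 0.36 over all such genes. At least 2-fold higher were 28 members, against 9.43% of genes, and at least 2-fold lower were 2, Myl2 and Tnnc1, against 60.8%. Acta1 and Ckm chose the barcodes, and a gene could reach the depth filter through the muscle barcodes alone, so these counts describe the members and support nothing further. Myh7, Casq2, Myl3 and Tnni1 stayed below the filter. The size of a fold depended on the threshold for muscle barcodes, since barcodes that fall below it join the comparison: at 500 per 10000, 24 of 31 members had a ratio at least 1.5 times lower, and Myh1 went from 3144-fold to 313.1-fold and Ttn from 1004-fold to 179.5-fold. The number of members at least 100-fold higher was 26 there too.

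The main thin filament genes were read in each muscle barcode. Acta1, the skeletal alpha-actin, stood at 49946 CPM (49455 to 50440) in muscle barcodes and 20.1 CPM (19.2 to 21.1) elsewhere, and per barcode it ran from 84.5 over 533.5 to 1122 UMIs per 10000. Tnnc2, the fast calcium sensor of the troponin complex, ran from 45.6 over 350 to 671.8 per 10000. Its partners were in each muscle barcode too: Tnni2, the fast inhibitory subunit, ran from 25.03 over 286.8 to 524.3 and Tnnt3, the fast tropomyosin-binding subunit, from 33.2 over 277.5 to 555.2. Among the other barcodes, 12.2% had an Acta1 UMI, 8.996% one of Tnnc2, 9.11% one of Tnni2 and 8.55% one of Tnnt3. Neb, the giant ruler protein of the thin filament, was read at 467.2 CPM (420.9 to 517.2) and in 83 of 112 barcodes.

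Tpm1 was the member found most widely elsewhere, with a UMI in 44.2% of the other barcodes. Tpm1, which covers the myosin sites on actin, reached 12848 CPM in muscle barcodes and 109.1 CPM (106.9 to 111.4) in the others, a ratio of 117.8 (114.5 to 121.2). Tpm2 reached 13790 CPM against 24.9 CPM, a ratio of 553.4 (528 to 580). Both genes also make non-muscle or smooth muscle isoforms, which summed counts per gene cannot separate. Tpm1 alone gave 40.3% of the member UMIs in other barcodes.

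The thick filament showed a contrast between its light and heavy chains. Mylpf, the fast regulatory light chain, and Myl1, the fast essential light chain, had UMIs in all 112 barcodes, at 27737 CPM (27372 to 28106) and 15939 CPM (15662 to 16219). The heavy chains gave far fewer UMIs: Myh4 gave 702.7 CPM (645.6 to 763.5), Myh1 gave 570.5 CPM (519.1 to 625.5) and Myh2 gave 76.8 CPM (58.8 to 98.7). Some heavy chain UMI was present in 104 of 112 barcodes. Per kilobase of exon, Tnnc2 was highest at 35834, followed by Acta1 at 32517 and Mylpf at 26118, and Myh4 stood at 116.8. Ttn, the giant spring of the sarcomere, came to 8.73 and Neb to 17.6 on that scale. The part of a transcript that was read is not given in the sources used here, so this scale may over-correct long genes.

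Members of the Z-disc, the anchoring lattice between sarcomeres, were found in 69 to 111 muscle barcodes. Tcap, which caps titin there, ran from 0 over 40.2 to 141.0 UMIs per 10000 and was found in 111 barcodes. Des, the muscle intermediate filament, ran from 0 over 29.4 to 112.8, in 110 barcodes. Myoz1, a calcineurin-binding Z-disc protein of fast fibres, was in 107 barcodes at 2005 CPM (1908 to 2106). Actn3, the alpha-actinin of fast fibres, stood at 960.8 CPM (894 to 1031) and Actn2, the alpha-actinin of all fibres, at 268.2 CPM (233.4 to 306.8). Actn2 was 503.9-fold above its level in other barcodes, Actn3 771.1-fold, Des 771.9-fold, Myoz1 2046-fold and Tcap 2165-fold. At a threshold of 500 per 10000 these ratios were 268.3, 480.5, 438.2, 726.6 and 694.6.

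Calcium handling and energy supply followed. Atp2a1, the fast calcium pump, stood at 2548 CPM (2438 to 2661) in 108 barcodes. Pvalb, a soluble calcium buffer of fast fibres, stood at 2565 CPM (2455 to 2679) in 100 barcodes, and Casq1, the calcium store protein of the reticulum, at 170.0 CPM (142.5 to 201.2) in 55. Mb, the oxygen-binding myoglobin, stood at 2425 CPM (2318 to 2536) in 98 barcodes. Cox6a2, the muscle form of a cytochrome oxidase subunit, was in all 112 at 3058 CPM (2937 to 3182), and Ckm, the muscle creatine kinase, at 15485 CPM (15213 to 15762). Ryr1, the calcium release channel, stood apart: it reached 108.3 CPM (86.6 to 134) in muscle barcodes and 16.2 CPM (15.3 to 17.1) elsewhere, a ratio of 6.70 (5.32 to 8.33). It was the only member higher in muscle barcodes whose ratio was below 10, among those with 50 or more UMIs.

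**Figure D2:**
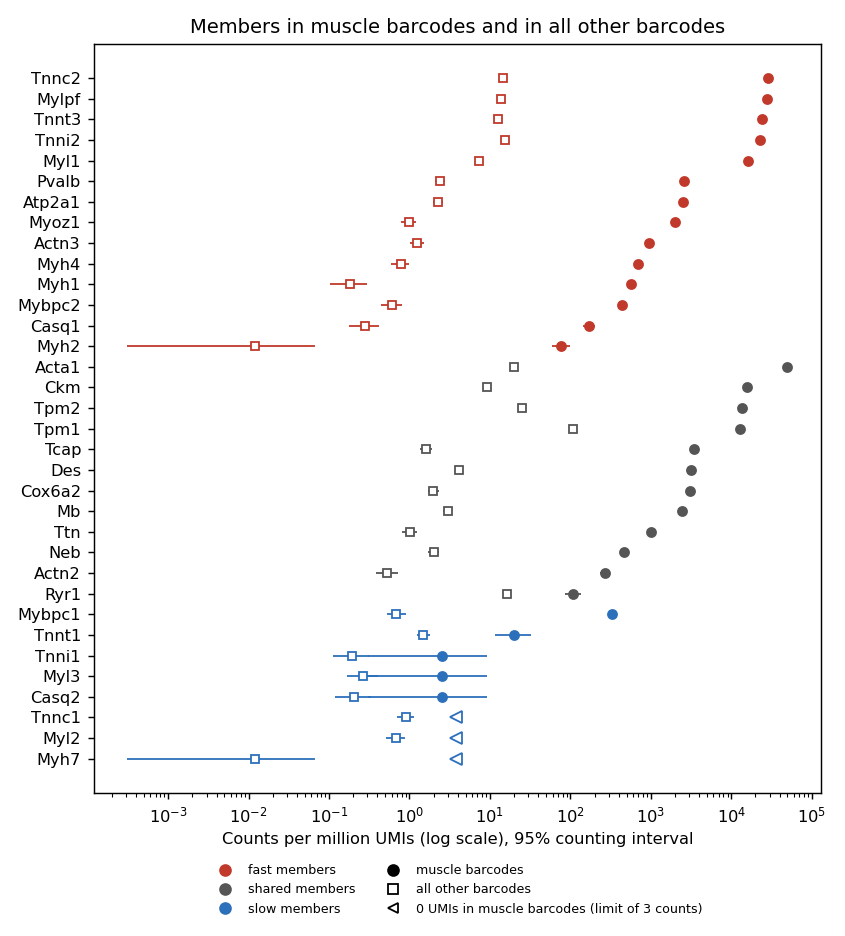
Level of each member in CPM (log axis) in the 112 muscle barcodes (filled circles) and in the 8015 other barcodes (open squares), with 95% counting intervals, coloured by fast, shared and slow members. Fast and shared members lie far to the right of their squares, with Tpm1 and Ryr1 closest, and 3 slow members with 0 UMIs are drawn as triangles at the limit of 3 counts.

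Fast genes outnumbered slow genes almost completely. Muscle barcodes held 102903 UMIs of the 14 fast members and 284 of the 8 slow members, a fast share of 99.7% (99.69 to 99.76), and no barcode had more slow than fast UMIs. The lowest fast share in a barcode was 89.8%. Of the 284 slow UMIs, 262 belonged to Mybpc1, and without that gene the fast share was 99.98%. Troponin C had 22765 fast UMIs from Tnnc2 and 0 slow UMIs from Tnnc1. Troponin I had 18216 from Tnni2 and 2 from Tnni1, and troponin T had 19273 from Tnnt3 and 16 from Tnnt1. Regulatory light chain had 22026 from Mylpf and 0 from Myl2, essential light chain 12657 from Myl1 and 2 from Myl3, and heavy chain 1072 from the 3 fast genes and 0 from Myh7. A count of 0 in muscle barcodes allows up to 3.78 CPM.

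Myosin-binding protein C, which ties the thick filament together, broke this pattern. The fast gene Mybpc2 had 344 UMIs and the gene named for slow muscle, Mybpc1, had 262, so that the fast gene took 56.8% (52.7 to 60.8). Mybpc1 was found in 71 barcodes and Mybpc2 in 83, and in 34 barcodes Mybpc1 exceeded Mybpc2. Mybpc1 ran from 0 over a median of 2.11 to 59.5 UMIs per 10000 and was 478.5-fold (358.1 to 649.0) above other barcodes, or 221.7-fold at a threshold of 500 per 10000. Tnnt1, the slow troponin T, was found in 6 muscle barcodes, with at most 7 UMIs in one.

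Slow genes outside muscle were rare and followed other classes. Classes were named by marker genes with the ending -like. Tnnc1 had 74 UMIs in other barcodes, 64 of them in fibroblast-like cells, a level 5.63-fold (2.79 to 12.9) above the other classes. Its gene overlaps Nisch on the opposite strand. Nisch stood at 170.8 CPM in fibroblast-like cells, 35.1 to 120.8 CPM in the other classes and 29.0 CPM in muscle barcodes. The part of Nisch in the Tnnc1 values was not tested. Myl2 had 56, with 40 in fibroblast-like cells, 2.64-fold (1.36 to 5.52) above the other classes. Myl3 had 22, with 20 in fibroblast-like cells. Myl2 and Myl3 also overlap genes on the opposite strand, whose part was not tested. Tnnt1 had 123, with 68 in macrophage-like cells, where it stood at 4.86 CPM (3.77 to 6.16) and was 6.09-fold (4.18 to 8.94) above the other classes. The macrophage-like clusters had 2.85, 7.87 and 7.92 CPM of Tnnt1. A fibroblast-like cluster of 406 barcodes had 5.95 CPM, and the other fibroblast-like clusters had 0.416 to 1.03 CPM. Casq2, the store protein of slow and cardiac muscle, had 17, of which 8 lay in the 19 pericyte or smooth muscle-like barcodes.

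The fast myosins divided the muscle barcodes. Myh2, Myh1 and Myh4, the heavy chains of 2A, 2X and 2B fibres, lie in this order on chromosome 11, from 67171027 to 67260446 of mm10. Myh4 was present in 66 muscle barcodes, Myh1 in 64 and Myh2 in 14. Myh4 and Myh1 occurred together in 29 barcodes, Myh1 and Myh2 in 11, and Myh4 and Myh2 in 0. Their sequences are close, so UMIs may be assigned to the wrong one, and with few heavy chain UMIs per barcode an absent gene may only be missed. Barcodes with 3 or more fast myosin UMIs were put under their most frequent gene, a grouping chosen after the data were seen: 41 were led by Myh4, 39 by Myh1 and 4 by Myh2, while 4 were tied and 24 had too few.

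**Figure D3:**
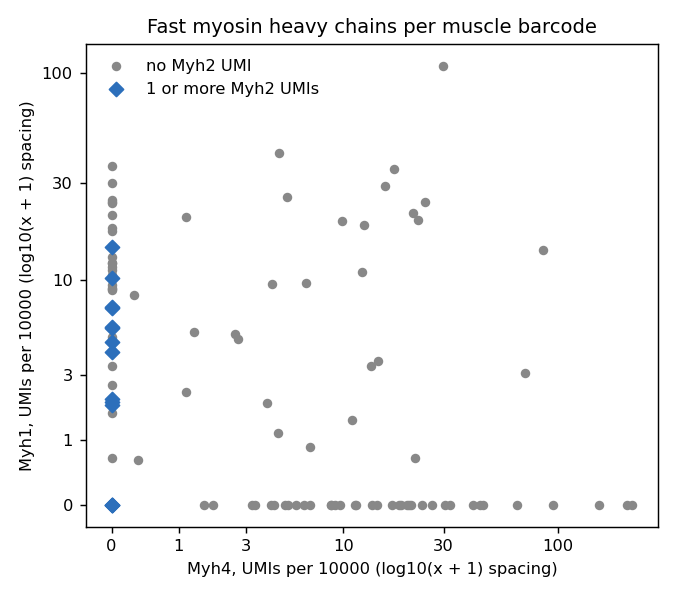
Myh4 against Myh1 in UMIs per 10000, spaced as log10(x + 1), for the 112 muscle barcodes, with barcodes that hold Myh2 as blue diamonds. The 14 diamonds all lie at a Myh4 level of 0, and 29 barcodes hold both Myh4 and Myh1.

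Between Myh4-led and Myh1-led barcodes, Pvalb and Actn3 were higher in the former and Mb and Actn2 in the latter. Pvalb ran from 6.79 over a median of 57.2 to 166.0 UMIs per 10000 in the 41 Myh4-led barcodes and from 0 over 13.7 to 48.1 in the 39 Myh1-led ones, so the ranges overlapped. The summed levels were 4285 and 1259 CPM, a ratio of 3.40 (3.04 to 3.81). Mb went the other way, from 0 over 5.10 to 64.7 per 10000 in Myh4-led barcodes and from 1.28 over 26.0 to 148.6 in Myh1-led ones, with a summed ratio of 0.317 (0.278 to 0.360). Actn3 had a median of 14.6 against 5.15 and a ratio of 3.66 (3.05 to 4.41), and Actn2 a median of 0.661 against 3.67 and a ratio of 0.329 (0.224 to 0.474). The 2 alpha-actinins therefore lay on opposite sides, while the other Z-disc members were within 1.5-fold, at 0.821 for Tcap, 0.767 for Des and 1.42 for Myoz1.

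The 2 myosin-binding proteins C did too. Mybpc2 had a ratio of 2.32 (1.80 to 2.99) and Mybpc1 one of 0.389 (0.278 to 0.537), with medians of 0.65 and 3.70 UMIs per 10000 for Mybpc1. The slow-named Mybpc1 was thus read in fast barcodes, and more in those led by Myh1. Myl1 was 1.73-fold (1.66 to 1.80) higher in Myh4-led barcodes. Mylpf (1.48), Ckm (1.39), Tnnc2 (1.38), Tnnt3 (1.30), Tnni2 (1.20) and Tpm1 (1.20) were higher there too, by less than 1.5-fold. Cox6a2 (0.845), Casq1 (0.677) and Neb (0.668) were lower, also by less than 1.5-fold, while Acta1 (0.949), Tpm2 (0.930) and Atp2a1 (1.07) were close to 1. These intervals count UMIs and not barcodes, and cells of 1 library are no replicates.

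Of 26 members with 50 or more UMIs in both groups together, 5 were at least 1.5-fold higher in Myh4-led barcodes, against 9.4% of 1393 genes, and 6 were at least 1.5-fold lower, against 14.9%. The higher ones were Myh4, Pvalb, Actn3, Mybpc2 and Myl1, and the lower ones Myh1, Mb, Actn2, Mybpc1, Ttn and Ryr1. Myh4 and Myh1 set the groups and are no finding. Ttn had similar medians of 8.88 and 8.35 per 10000, and 1 barcode held 135 of its UMIs, and Ryr1 had a median of 0 in both. Over the 88 barcodes with 3 or more fast myosin UMIs, the share of Myh4 among them had a Spearman rho of 0.707 with Pvalb, 0.617 with Actn3 and -0.659 with Mb. These barcodes share 1 library and differ in depth, with median UMIs of 5207 and 6919 in the Myh4-led and Myh1-led groups, so the values are descriptions. Removing 10 called doublets from the groups gave ratios of 3.81 for Pvalb, 4.03 for Actn3 and 0.34 for Mb.

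After each barcode was thinned to 1000 UMIs, which left out 4 shallower Myh4-led barcodes, Pvalb was seen in 94.6% of Myh4-led and 64.1% of Myh1-led barcodes. Mb was seen in 48.6% and 89.7%. Before thinning these shares were 100% and 92.3% for Pvalb, and 82.9% and 100% for Mb. The thinned order of both genes was the order of their summed levels.

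**Figure D4:**
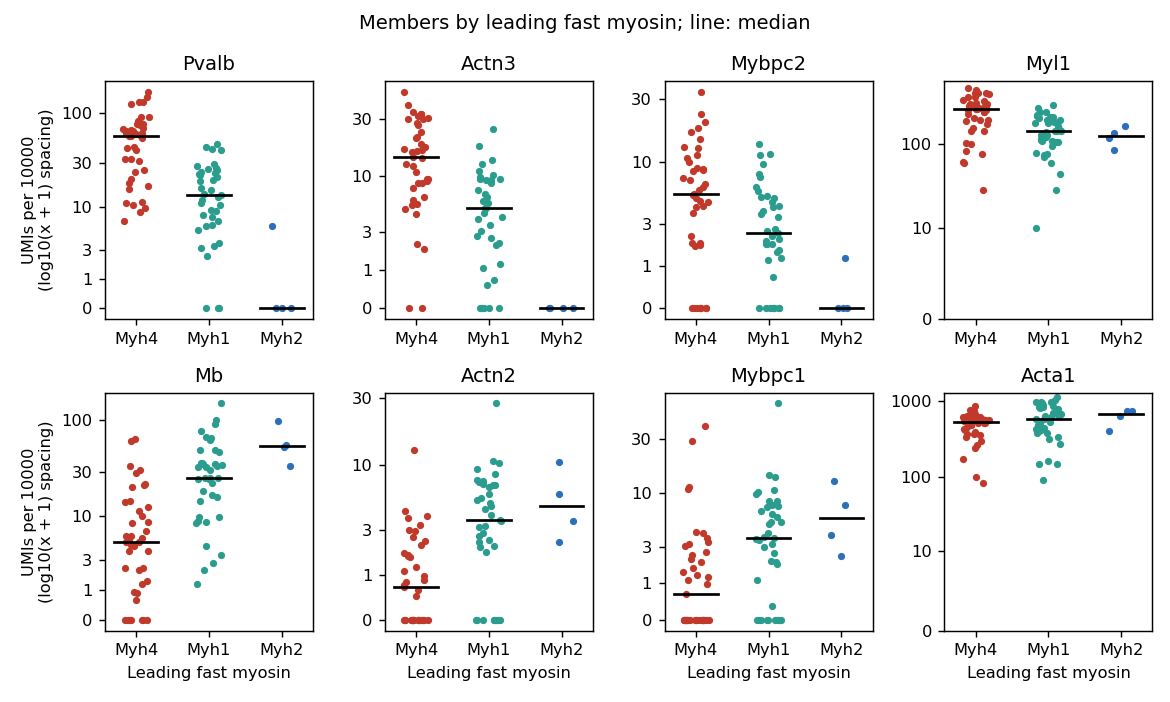
Levels of 8 members in UMIs per 10000, spaced as log10(x + 1), in muscle barcodes led by Myh4 (41), Myh1 (39) or Myh2 (4), with 1 point per barcode and a line at the median. Pvalb, Actn3 and Mybpc2 step down from left to right, Mb, Actn2 and Mybpc1 are lowest in the Myh4-led group, and the Acta1 points of the 3 groups overlap.

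The 14 barcodes that held Myh2, the heavy chain of the most oxidative fast fibres, carried Mb in all 14, at 9 to 163 UMIs. Actn3 was present in 3 of them, Pvalb in 6 and Tnnt1 in 4. In the 4 barcodes led by Myh2, Mb stood at 7331 CPM and Actn3 at 0. Tnnc1, Myl2 and Myh7 were at 0 in all 14, as in every muscle barcode. Of the other slow members, Mybpc1 was in 12 of the 14, Tnni1 and Myl3 in 1 each and Casq2 in 0.

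Other genes of the same pathways were read from lists. Of 23 other sarcomere genes with 50 or more UMIs, 21 were at least 10-fold higher in muscle barcodes, against 1.97% of all genes of that depth, as were 10 of 14 triad and calcium genes and 17 of 20 genes of muscle energy metabolism. Here too a gene could reach the depth filter through the muscle barcodes alone, so these counts only describe the lists. Csrp3, a stretch-sensing Z-disc protein, was 6157-fold (4010 to 9982) higher, and Sln, a small inhibitor of the calcium pump, 3445-fold (1903 to 6962). Smpx, Myoz2, Xirp2, Ppp1r27, Pgam2, Cox8b, Car3 and Jsrp1 completed the 10 genes outside the 34 members with the largest ratios among those with 200 or more UMIs in muscle barcodes. Several members had ratios in the same range, such as Myh1 and Tcap above. Tpm3 and Atp2a2, the tropomyosin and calcium pump of slow fibres, were lower in muscle barcodes, at 0.241-fold (0.171 to 0.330) and 0.250-fold (0.166 to 0.361), and both are also made by many other cells. Pln, the pump inhibitor of slow and cardiac muscle, was at 0. Of 10 other myosin and troponin paralogs, 8 were at 0, and Myh8, the perinatal myosin, had 5 UMIs in 1 barcode.

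Between the myosin groups, 17 of the other sarcomere genes had 50 or more UMIs, and 7 of them were at least 1.5-fold lower in Myh4-led barcodes and 0 higher, against 14.9% and 9.4% of all genes of that depth. Of 12 triad and calcium genes 1 was lower and 1 higher, and of 17 energy genes 2 were lower and 1 higher. The lower ones were Csrp3, Ankrd2, Myoz2, Cryab, Lmod2, Lmod3, Mypn, Sln, Fabp3 and Ckmt2. Mypn had a median of 0 in both groups, with a UMI in 14 Myh4-led and 16 Myh1-led barcodes. The higher ones were Mrln, a small inhibitor of the calcium pump, at 1.70 (1.19 to 2.45), and Pgm1, an enzyme of glycogen use, at 1.59 (1.08 to 2.35). Csrp3 stood at 279.3 CPM in Myh4-led and 2785 CPM in Myh1-led barcodes, a ratio of 0.100 (0.079 to 0.126). Ankrd2, a stretch-induced nuclear protein, had a ratio of 0.036 (0.007 to 0.109), Myoz2, the slow-fibre relative of Myoz1, 0.042 (0.011 to 0.112) and Sln 0.147 (0.091 to 0.227). Fabp3, which carries fatty acids, had 0.295 (0.236 to 0.367). Myoz1 itself went the other way, at 1.42 (1.27 to 1.59). Of the 16 genes of satellite and differentiating muscle cells, 8 were at 0, and Pax7, the satellite cell factor, had 1 UMI. Myf6, the regulator kept by mature fibres, had 94, Myod1 25 and Myog 12.

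Outside the muscle barcodes the members were thin and uneven. They summed to 270.4 CPM (266.9 to 274.0), and 28.6% of these barcodes had no member UMI. Without Tpm1, Tpm2, Des and Ryr1, 57.0% had no UMI of the other 30 members. Acta1 ran from 5.03 CPM in the cluster led by Skint6 and Abca12 to 45.0 CPM (39.2 to 51.4) in suprabasal keratinocyte-like cells, with 0 UMIs in 23 mast-like barcodes, whose depth allows up to 52.5 CPM. Called doublets had 68.5 CPM (61.3 to 76.4). Without 2 barcodes at 10 or more Acta1 plus Ckm per 10000, the suprabasal level was 18.5 CPM, and 1 barcode alone held 124 of 217 Acta1 UMIs there. After thinning to 1000 UMIs, Acta1 was seen in 100% of muscle barcodes, 1.99% of fibroblast-like, 1.99% of macrophage-like and 3.202% of suprabasal keratinocyte-like barcodes. The unthinned shares were 11.7%, 11.8% and 15.4% in these 3 classes, at median depths of 10699, 8561 and 12050 UMIs.

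To see whether the same mix of members appeared in each class, each member was divided by Acta1 in the class and in muscle barcodes. Of 95 class and member pairs with 20 or more UMIs and a muscle ratio above 0, 51 were within 2 times the muscle ratio. Tnnc1 and Myl2 in fibroblast-like cells, with 64 and 40 UMIs, were left out because both were at 0 in muscle barcodes. Called doublets were counted as a class. Ckm, Mylpf and Tnnc2 in called doublets were among the 51, at 1.27, 0.906 and 1.22 times the muscle ratio. The top 5 called doublets held 54.6% of the Acta1 UMIs of that group. In 28 pairs, of 12 members, the ratio was 5 or more times that of muscle. Tpm1 and Tpm2 made up 13 of the 28. The source of the UMIs in the 51 pairs was not tested.

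Tpm1 stood at 379.9 CPM (365.5 to 394.6) in basal keratinocyte-like cells, 4.62-fold (4.41 to 4.84) above the summed level of the other classes. The cluster led by Skint6 and Abca12 had more Tpm1, at 568.3 CPM (468.4 to 683.2), from 113 UMIs in 33 of 60 barcodes. Pericyte or smooth muscle-like cells, only 19 barcodes, held Tpm2 at 7023 CPM (6548 to 7523), Tpm1 at 2684 CPM (2394 to 3001) and Des at 1195 CPM (1004 to 1412). Acta1 was at 17.3 CPM there. Mybpc1 was at 181.9 CPM in that class, from 21 UMIs in 4 barcodes, with 13 in one.

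Ryr1 was highest outside muscle in myeloid classes. It stood at 71.2 CPM (66.8 to 75.7) in macrophage-like cells, 18.5-fold (16.1 to 21.4) above the other classes, at 54.5 CPM (44.9 to 65.6) in dendritic-like and at 26.6 CPM (19.3 to 35.8) in monocyte-like cells. Fibroblast-like cells had 1.08 CPM. A Ryr1 UMI was seen in 37.7% of macrophage-like and 0.861% of fibroblast-like barcodes, and after thinning in 6.03% and 0.102%. The 3 macrophage-like clusters had 89.5, 25.04 and 61.9 CPM. Those at 89.5 and 61.9 CPM had Ccr2 among their leading genes, but no other gene of the monocyte list. Both passed 6 macrophage markers.

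Ryr1 ends 64 bases from Map4k1, a kinase of blood cells that is read from the opposite strand towards it, on chromosome 7. Map4k1 stood at 60.2 CPM in macrophage-like, 71.6 in dendritic-like and 33.4 in monocyte-like cells, and at 0.322 in fibroblast-like cells and 3.78 in muscle barcodes. Of the 552 macrophage-like barcodes with Ryr1, 304 also held Map4k1, with no share given for those without Ryr1. Whether the counting used strand is not given in the sources used here, and which of the 2 genes gave the Ryr1 UMIs outside muscle was not tested.

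Tnni2 stood at 83.8 CPM (71.7 to 97.3) in dendritic-like cells, 7.46-fold (6.30 to 8.80) above the other classes, with UMIs in 65 of 253 barcodes. Lsp1, a leukocyte actin-binding protein, is the next gene downstream on the same strand, 16398 bases away. It was at 1390 CPM in that class, from 2855 UMIs in the 253 barcodes, and 64 of the 65 barcodes held it. No share is given for barcodes without Tnni2, so the 64 cannot be read as a link. Across the classes Lsp1 was 800.7 CPM in macrophage-like cells, where Tnni2 was 18.1 CPM. The part of Lsp1 in the Tnni2 values was not tested.

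Cox6a2 was found in 7 dendritic-like barcodes with 35 UMIs, up to 20 in one. Of these 7, 6 held Siglech and 5 held Ccr9, which mark plasmacytoid dendritic cells, against 11 and 8 of the 246 dendritic-like barcodes without Cox6a2. Bst2 and Tcf4, also counted, separated the groups less. They were in 7 and 6 of the 7, and in 159 and 114 of the 246. Acta1 was present in 1 of the 7. Siglech, Ccr9, Bst2 and Tcf4 were chosen after the Cox6a2 values were seen. Itgad, which overlaps Cox6a2 on the opposite strand, had 1 UMI in the class.

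Mb stood at 4.69 CPM (4.07 to 5.38) in fibroblast-like cells, 7.02-fold (4.55 to 11.3) above the other classes, in 178 of 3947 barcodes with at most 3 UMIs. Its clusters ran from 0 to 8.77 CPM. Apol6, which overlaps Mb on the opposite strand, was at 4.44 CPM in that class. Of the 178 barcodes 13 held it, with no share given for barcodes without Mb. Apol6 had 193 UMIs there and 0 in muscle barcodes, and its part in the Mb values was not tested. Actn2 stood at 15.4 CPM in NK or innate lymphoid-like cells, from 21 UMIs in 14 of 226 barcodes.

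**Figure D5:**
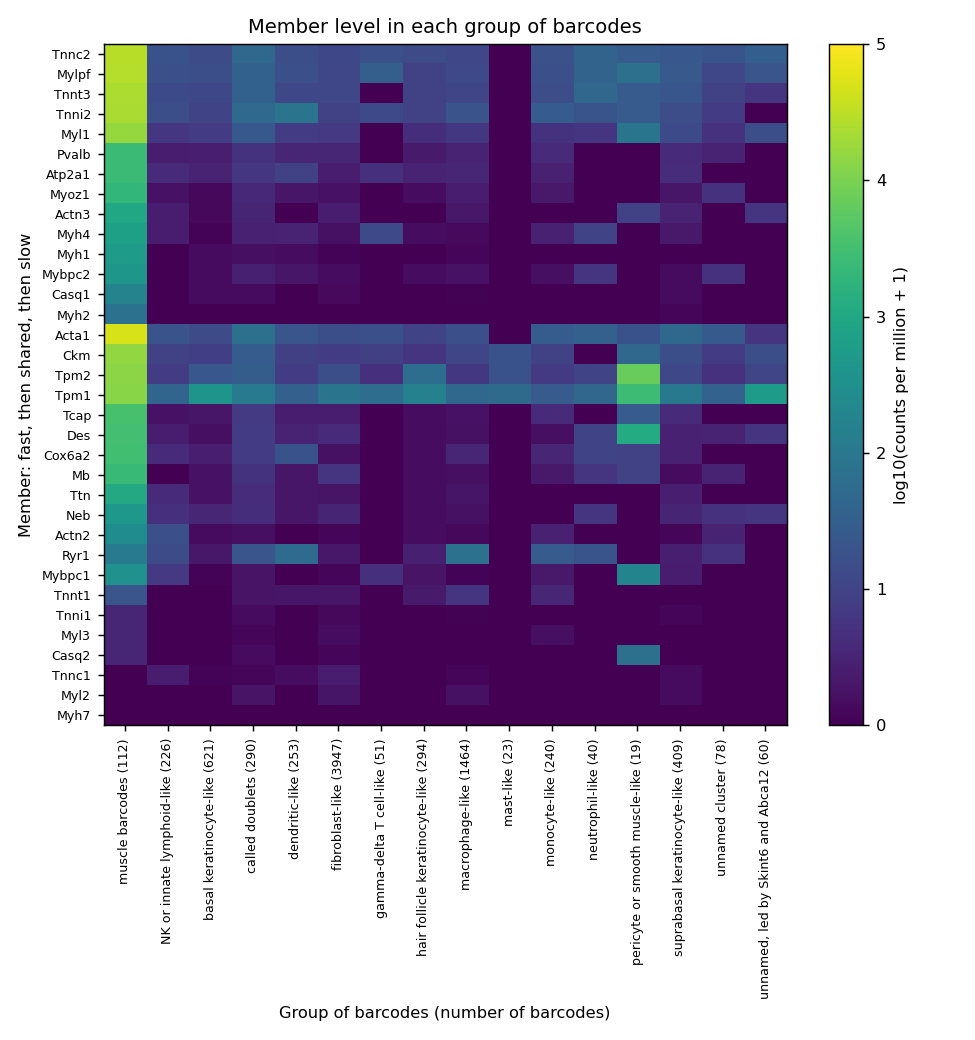
Level of the 34 members, as log10(CPM + 1), in muscle barcodes and in each other class, with the number of barcodes in parentheses. Muscle barcodes are bright for fast and shared members and dark for most slow ones, and outside them the pericyte or smooth muscle-like class is bright for Tpm2, Tpm1 and Des.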

How the data were processed

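The deposited table holds UMI counts per gene and barcode of the pooled RNA library, made by the authors with Cell Ranger on mm10, per the submitters' processing notes, with no version and no normalization named. Strand use, chemistry and cell calling are not given in the sources used here. The table held 8367 barcodes and 83725065 UMIs. Barcodes under 200 genes (87) or over 20% mitochondrial UMIs (237) were removed, 240 in all.

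Levels are summed UMIs over barcodes on the CPM scale, and their intervals are exact Poisson. Ratios have exact conditional intervals and shares Clopper-Pearson intervals, at 95%. Where a sum was 0, the limit given is 3 counts. No test between conditions was made, since there was 1 library.

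Doublets (305, 3.75%) were called by scrublet (Scanpy 1.11.5, expected rate 6%). They were kept in the summed values and removed before clustering. Clusters came from 2000 variable genes without the members, 30 principal components, 15 neighbours and Leiden resolution 1 (leidenalg 0.10.2, igraph 0.11.9). A class was named when at least 3 markers and 50% of its list were 2-fold above the median cluster in 10% of cells. A rule that left 1 cluster unnamed was added after its leading genes were seen. 23 marker lists were used, and 1 marker had no row in the table.

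The members and lists were chosen with earlier results of these data known. All 34 members are named. From each of 5 other lists, genes were eligible by the 3 highest levels and 3 largest ratios, and of all other genes the 10 largest ratios with 200 or more UMIs. Other genes in the text (all list genes named between myosin groups, Tpm3, Atp2a2, Pln, Pax7, Map4k1, Lsp1, Itgad, Apol6, Nisch, Siglech, Ccr9, Bst2, Tcf4) were chosen after their values were seen. Gene positions and lengths are from GENCODE M21. The calculation was tested on simulated data. The work ran on Python 3.11.15 with matplotlib 3.10.9, SciPy 1.17.1 and NumPy 2.4.6.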

Additional observations from a re-analysis of the deposited data

Results flagged for a closer look

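Barcodes removed by the filters, 240 in all, lie outside the comparisons of the report. The 34 members stood at 408.2 CPM (334.9 to 492.9) in them, from 108 UMIs, where a count of 0 would allow 11.3 CPM. In the kept barcodes outside muscle the level was 270.4 CPM. Classes there ran from 87.4 CPM in mast-like cells to 684.0 CPM in the cluster led by Skint6 and Abca12, apart from pericyte or smooth muscle-like cells at 11500 CPM. None of the removed barcodes reached the threshold for muscle barcodes. Their highest Acta1 plus Ckm level was 29.8 per 10000, and Acta1 gave 14 of their UMIs.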

How the results depend on the processing

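The number of muscle barcodes ran from 89 to 116 over the alternatives tried, and the count of members at least 10-fold higher was 27 under each of them except without a filter on low counts, where it was 29. The member share of UMIs in muscle barcodes was 22.5%, 26.3% and 31.0% at thresholds of 50, 200 and 500 per 10000, 29.4% without called doublets, 26.85% with every barcode weighing the same and 26.83% without muscle barcodes with 3 or more fibroblast markers. The fast share was 99.77% at a threshold of 500, 99.61% with every barcode weighing the same and 99.92% per kilobase of exon. The member level in other barcodes was 252.8, 363.8 and 623.4 CPM at thresholds of 50, 200 and 500, since muscle barcodes then change sides, 256.4 CPM without called doublets, 330.9 CPM with every barcode weighing the same and 244.7 CPM without barcodes at 10 or more Acta1 plus Ckm per 10000. For the last 2 settings and for the fast share the cause was not tested. Without barcodes at 10 or more, an alternative chosen after seeing the data for classes, the member level fell from 296.8 to 184.4 CPM in suprabasal keratinocyte-like cells and from 502.5 to 307.0 CPM in called doublets. Of 310 alternative values for ratios of members between muscle and other barcodes, 130 moved by more than the counting interval. Ratios fell at least 1.5 times for 12 of 31 members at a threshold of 200, for 24 at 500 and for 4 with every barcode weighing the same, and the largest fall was that of Myh1, by 3.33 on the log2 scale at 500. The number of members at least 100-fold higher was 26 under each of the 10 settings tried for these ratios. Of 104 alternative values for ratios between Myh4-led and Myh1-led barcodes, all chosen after seeing the data, 20 moved by more than the counting interval. With every barcode weighing the same the log2 ratio of Ttn was -0.60 against -0.91. With members taken out of the denominator, that of Acta1 was 0.01 against -0.07. Low counts limit Myh2, Casq1 and the slow members. No paired analysis was possible because there was 1 RNA library and barcodes carried no condition or replicate.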
